A study of Homo sapiens with 8 samples.

Results

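Interferon-stimulated genes are the genes a cell switches on when it senses viral nucleic acid or receives an interferon signal. A list of 47 such genes, with the sensors that start the response and the transcription factors that carry it, was followed in 2 Ewing sarcoma cell lines in which the Polycomb protein RING1B was targeted by a short hairpin RNA. The genes were listed by their known role, with earlier results of these data known. Of the 47 genes, 34 had a named probe set among the 14884 named genes of the array, and where a gene had several probe sets, the one with the highest average signal was used. The other 13 listed genes were not analysed here: STAT2, OAS1, OAS2, OAS3, MX1, CMPK2, PARP9, PARP12, PARP14, IFI16, GBP1, IFI6 and IFI27.

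The lines were A673 and SK-ES1, both established from Ewing sarcoma, a tumour driven by an EWSR1 fusion protein. Each line carried a hairpin directed at RING1B (shRING1B) or, as control, one directed at GFP (shGFP), with 2 arrays in each of the 4 groups and 30 ng of total RNA per array. RING1B, the product of RNF2, adds ubiquitin to histone H2A as the enzyme of Polycomb repressive complex 1, and the study asked how it works together with EWSR1-FLI1 on chromatin. The level of RNF2 was not analysed here, so the labels shGFP and shRING1B were taken as given. The labels do not say whether a hairpin line was 1 clone, or whether the arrays of a group came from separate cultures, so a p-value measures only the spread between these arrays. All levels below are log2 RMA values, and a difference of 1 is a 2-fold difference in signal.

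The response runs in steps. RIG-I (RIGI) and MDA5 (IFIH1) bind double-stranded RNA in the cytoplasm and signal to interferon genes. Secreted interferon then activates a complex that includes STAT2 and IRF9 and binds the interferon-stimulated response element (ISRE) in the promoters of effector genes. A second element, the gamma-activated site (GAS), serves the response to interferon gamma. The effectors degrade viral RNA, block its translation, stop virions leaving the cell, or attract T cells, and many tumour lines keep a part of this programme on without infection.

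The promoters of 5 members are shown because these genes had the smallest p-values in the SK-ES1 knockdown comparison, and IFI44L and IFI44 are also neighbours. Each window runs 5′ to 3′ on the gene's strand, from 250 bases before to 50 bases after the RefSeq start (GRCh38.p14), in lower case with matches to the ISRE core on either strand in capitals. The core searched was GAAA, any 2 bases and GAAA again. The window of BST2 lies at chr19:17405581-17405880 on the minus strand, that of CXCL10 at chr4:76023448-76023747 on the minus strand and that of SP100 at chr2:230415951-230416250 on the plus strand. Those of IFI44L and IFI44 lie at chr1:78620198-78620497 and chr1:78649539-78649838, both on the plus strand.
BST2: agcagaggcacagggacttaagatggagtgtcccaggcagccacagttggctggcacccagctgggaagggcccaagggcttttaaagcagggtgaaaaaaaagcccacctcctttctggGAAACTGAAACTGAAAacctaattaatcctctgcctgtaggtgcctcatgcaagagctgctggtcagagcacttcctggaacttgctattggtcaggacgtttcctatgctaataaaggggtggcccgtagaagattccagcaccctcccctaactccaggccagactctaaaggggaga
CXCL10: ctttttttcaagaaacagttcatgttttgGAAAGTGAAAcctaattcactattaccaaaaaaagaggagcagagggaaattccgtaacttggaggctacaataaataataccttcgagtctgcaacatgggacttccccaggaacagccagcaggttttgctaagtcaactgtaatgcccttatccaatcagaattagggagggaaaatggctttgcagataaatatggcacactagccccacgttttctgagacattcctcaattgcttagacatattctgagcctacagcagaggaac
SP100: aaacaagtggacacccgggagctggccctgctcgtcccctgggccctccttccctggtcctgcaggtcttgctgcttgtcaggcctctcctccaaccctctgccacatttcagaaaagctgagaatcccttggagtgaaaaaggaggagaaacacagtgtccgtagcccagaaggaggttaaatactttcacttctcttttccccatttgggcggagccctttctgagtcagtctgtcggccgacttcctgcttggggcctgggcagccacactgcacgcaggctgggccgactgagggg
IFI44L: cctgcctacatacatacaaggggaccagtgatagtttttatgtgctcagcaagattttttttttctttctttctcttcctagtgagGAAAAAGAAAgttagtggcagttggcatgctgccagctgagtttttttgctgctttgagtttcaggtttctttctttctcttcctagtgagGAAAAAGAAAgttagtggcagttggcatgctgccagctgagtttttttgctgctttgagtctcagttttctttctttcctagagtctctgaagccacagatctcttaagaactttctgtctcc
IFI44: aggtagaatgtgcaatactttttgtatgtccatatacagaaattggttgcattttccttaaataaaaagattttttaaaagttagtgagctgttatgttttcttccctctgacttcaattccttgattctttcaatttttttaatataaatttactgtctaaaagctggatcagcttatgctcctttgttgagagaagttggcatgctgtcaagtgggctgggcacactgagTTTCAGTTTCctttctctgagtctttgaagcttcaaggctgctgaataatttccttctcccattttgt

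BST2 held 2 overlapping ISRE cores, IFI44L held 2 cores with the same letters, CXCL10 and IFI44 held 1 each, and SP100 held none in the window shown. The RefSeq promoter table had an entry for 26 of the 34 measured members, 6 of them with more than 1 window. An ISRE core was present in 17 of these 26 members (65.4%), against 4.38% of the 27305 genes in the table and 3.89% of the 10749 genes both in it and named on the array. The GAS letters TTCNNNGAA, also searched on both strands, were present in 8 of 26 members (30.8%), against 9.38% of all genes in the table. A match is a run of letters, not a shown binding site. More than 1 ISRE core was found in 10 members, with 3 each in IFIH1, IFIT5 and HERC5.

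**Figure D1:**
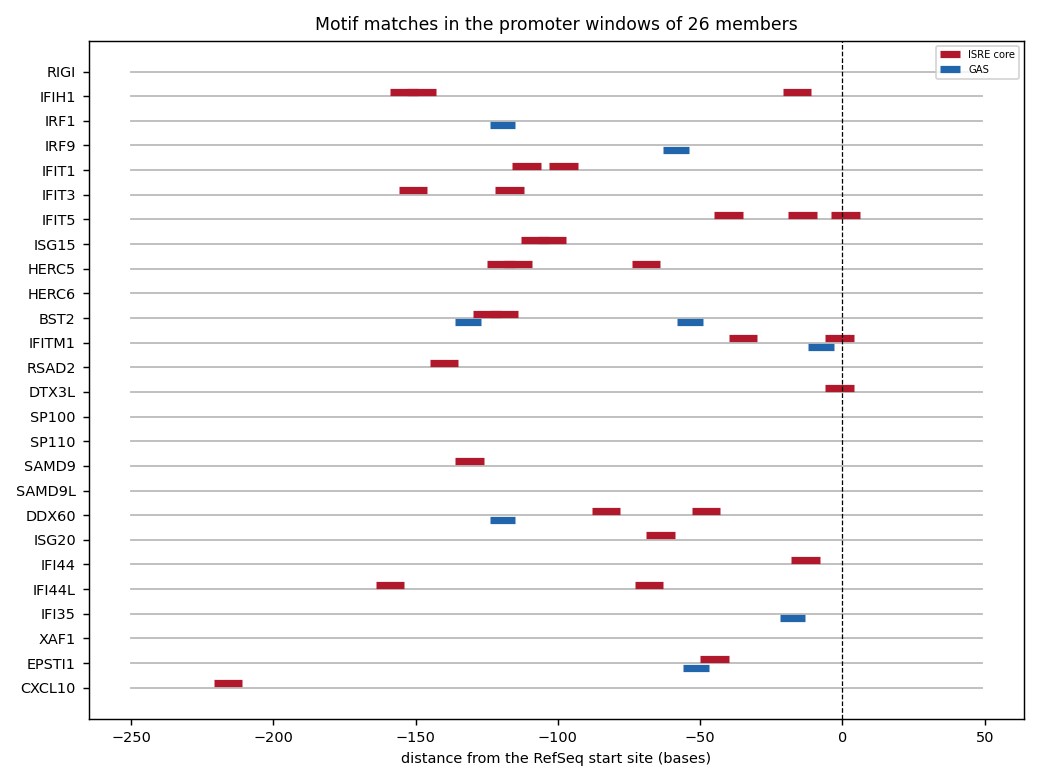
Positions of ISRE core and GAS letter matches (horizontal axis, bases from the RefSeq start) in the promoter windows of the 26 members in the table (rows). For a member with more than 1 window, the window with the most ISRE cores is drawn. Of the 26 members, 17 have an ISRE core.

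The 34 genes stood at clearly different levels in the 2 lines. The median member was at 4.54 and 4.57 on the A673 shGFP arrays and at 5.90 and 5.95 on the SK-ES1 shGFP arrays. Under shGFP, 24 members were higher in SK-ES1 by limma (adjusted p under 0.05), against 13.7% of all named genes, and 3 were lower, against 17.0%. The median difference, SK-ES1 minus A673, was 1.01 for the members and 0.01 for all named genes. In A673 13 of the 34 members had a mean under shGFP below 4.06, the median of all probe sets, while in SK-ES1 this held for 4. Signal over background was not measured, and the part of these low levels in the A673 results was not tested.

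CXCL10, a chemokine that attracts T cells through CXCR3, was at 3.74 and 3.94 in A673 and at 7.85 and 7.91 in SK-ES1. This was a log2 difference of 4.04 (limma adjusted p = 1.28e-07). IFIH1, the MDA5 sensor, was 3.82 higher in SK-ES1 on the log2 scale (adjusted p = 3.32e-08). BST2, also called tetherin, which holds budding virions at the cell surface, was 2.99 higher, and IFIT1, which binds RNA with a foreign cap, was 2.98 higher. ISG15, a ubiquitin-like modifier, was 2.63 higher, and its ligase HERC5 was 2.46 higher. Of these genes, CXCL10, IFIH1, BST2, IFIT1 and HERC5 were below the median of all probe sets in A673, where it was not measured whether the signal was above background, so their differences are given without folds and are not ranked. ISG15, at 6.38 and 6.09 in A673, was above it. The 3 members lower in SK-ES1 were DTX3L, a ubiquitin ligase of the DNA damage response (-1.43), SAMD9L, a translation repressor (-0.68), and IRF1, a transcription factor also induced by interferon gamma (-0.52). Of the 27 members called in either direction, 23 were called under every alternative in which they were tested. One of these, MX2, was not in the fit of only the genes above the median of all probe sets. Members low in A673, such as CXCL10, were in that fit through their SK-ES1 levels, so it adds no support for them. DHX58, IRF1 and SP110 each lost the call when 1 of several shGFP arrays was left out (highest adjusted p of 0.171, 0.0981 and 0.156). DHX58 also lost it with a trended, robust prior variance (0.0579), and SAMD9 lost it without the second A673 shGFP array (0.0566).

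**Figure D2:**
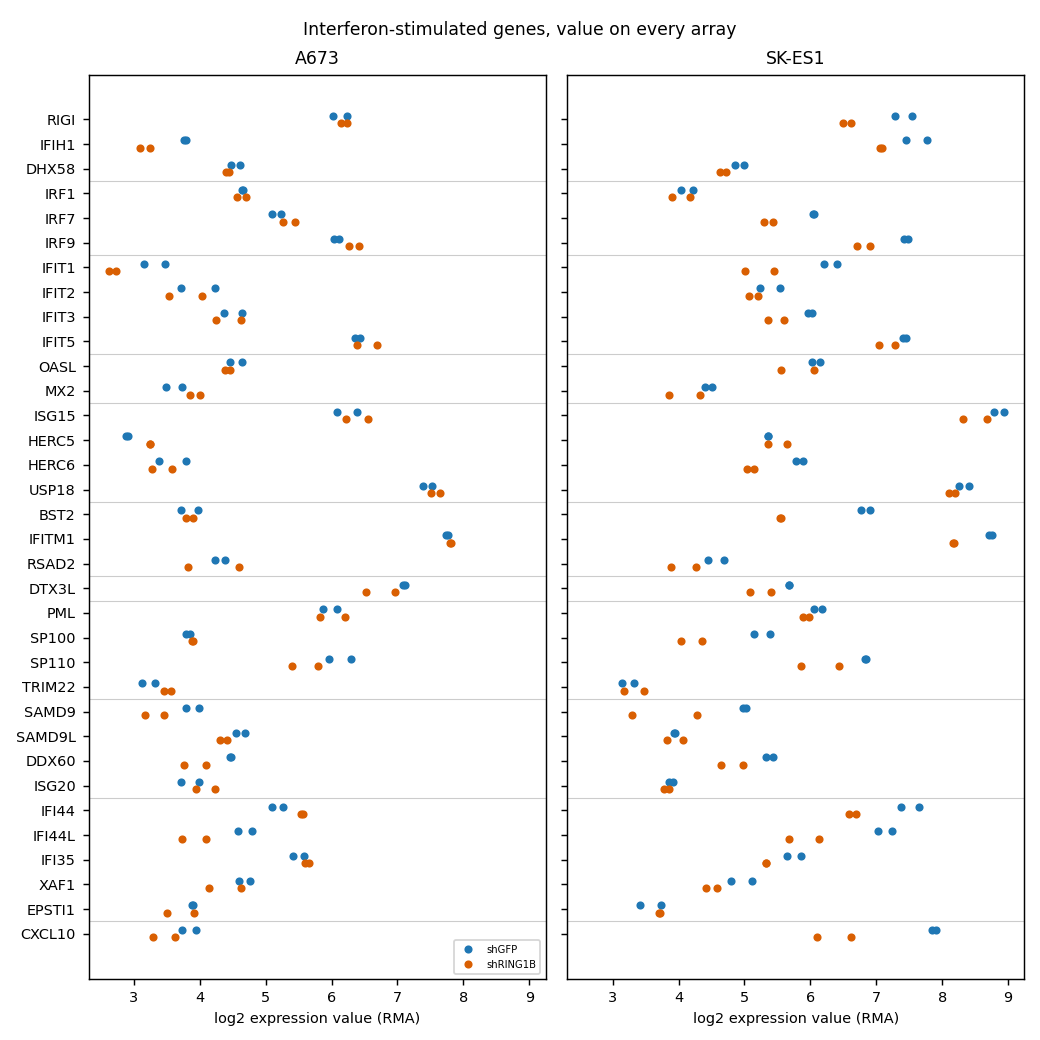
log2 RMA level of each of the 34 members (rows, in order of role) on each of the 8 arrays, A673 on the left and SK-ES1 on the right. In SK-ES1 most shRING1B points lie left of both shGFP points, with 28 members showing no overlap in that direction (19.3% of all named genes). In A673 10 members lie lower without overlap (23.9% of all named genes) and 9 lie higher (26.0%).

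In SK-ES1, the shRING1B arrays had lower levels across most of the list. The change, shRING1B minus shGFP, was below 0 for 30 of 34 members (51.0% of all named genes), with a median of -0.47 against 0.00 for all named genes, and it ran from -1.53 to 0.14. Both shRING1B arrays lay below both shGFP arrays for 28 of 34 members, against 19.3% of all named genes, and none lay wholly above, against 17.8%. By limma, BST2, CXCL10 and SP100 fell (adjusted p under 0.05), which is 3 of 34 members against 0.0672% of all named genes, that is 3 of the 10 genes called lower in the whole comparison. At an unadjusted p under 0.05, 20 members were lower, against 4.13% of all named genes, and none was higher, against 3.23%. In these bulk samples, fewer cells expressing a gene and less RNA per cell cannot be told apart.

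CXCL10 had the lowest change of the list. Its SK-ES1 levels were 7.85 and 7.91 under shGFP and 6.10 and 6.61 under shRING1B, so the groups did not overlap. It fell by 1.53, a 2.88-fold decrease (95% interval of the change -1.92 to -1.13, limma adjusted p = 0.0155). BST2 was at 6.77 and 6.91 under shGFP and at 5.54 and 5.55 under shRING1B. Its fall of 1.29, or 2.45-fold (-1.57 to -1.01, adjusted p = 0.00605), left the pairs of arrays far apart. SP100, a core protein of the PML nuclear bodies that silence incoming viral genomes, was at 5.38 and 5.15 under shGFP and at 4.03 and 4.35 under shRING1B. It fell by 1.07, or 2.1-fold (-1.38 to -0.76, adjusted p = 0.0284).

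These 3 calls rested on few arrays. Leaving out any 1 of the 4 SK-ES1 arrays ended the call of BST2, with adjusted p from 0.0503 to 0.1 and changes from -1.22 to -1.36. CXCL10 lost its call without either SK-ES1 shGFP array (0.13 and 0.16) or without the first shRING1B array (0.113, change -1.27), and kept it without the second. SP100 lost its call without any 1 of the 8 arrays (0.0527 to 0.255) and in a fit of the 4 SK-ES1 arrays alone (0.143). The direction could not change in these fits, because both shRING1B arrays of each gene lay below both shGFP arrays.

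**Figure D3:**
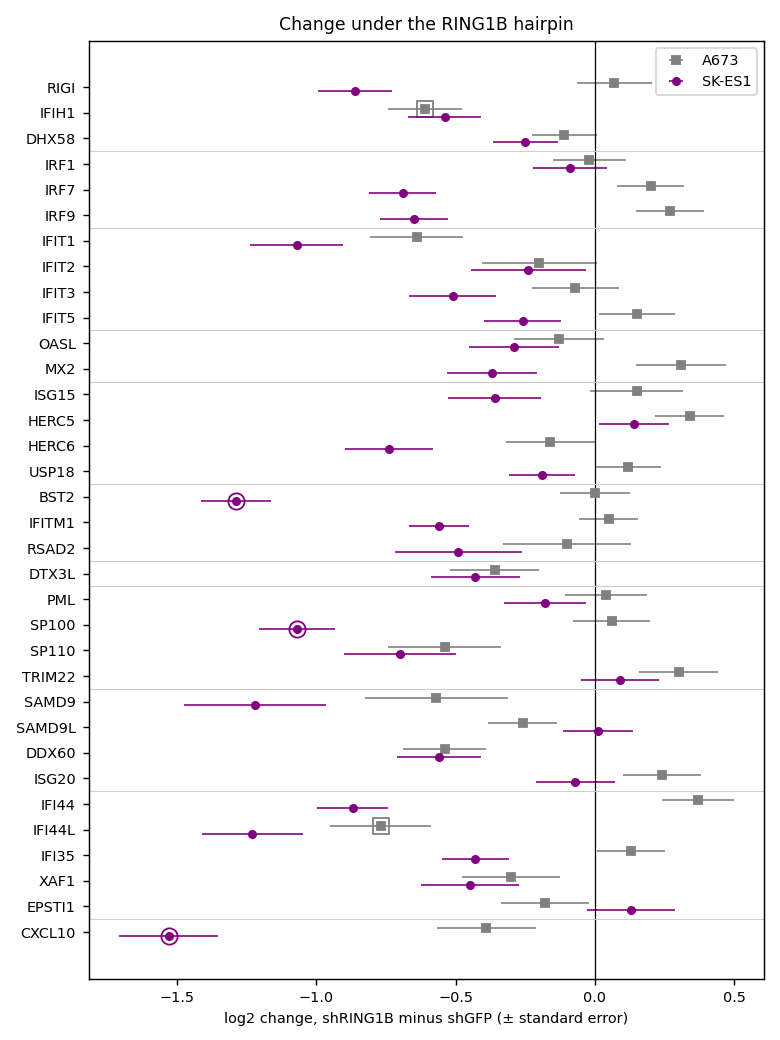
log2 change, shRING1B minus shGFP, of the 34 members (rows) in A673 and SK-ES1, with standard errors as bars; large open markers show a limma adjusted p under 0.05. The SK-ES1 changes run from -1.53 to 0.14 with a median of -0.47, and the A673 changes from -0.77 to 0.37 with a median of -0.04.

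The 3 RNA sensors all had changes below 0 in SK-ES1, and none passed the test as fitted here. RIGI was at 7.29 and 7.54 under shGFP and at 6.62 and 6.50 under shRING1B, a change of -0.86 (limma adjusted p = 0.0692). RIGI passed with a trended, robust prior variance (0.0041) and with only the genes above the median of all probe sets (0.0287), and reached 0.455 without the second shRING1B array. IFIH1 was at 7.45 and 7.77 against 7.08 and 7.05, a change of -0.54 (0.334). DHX58, which encodes LGP2, a helicase that tunes the other sensors, was at 4.85 and 5.00 against 4.63 and 4.72, a change of -0.25 (0.689). For each of the 3 genes the shRING1B arrays lay below the shGFP arrays.

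Of the transcription factors, IRF7 amplifies type I interferon production and IRF9 is the DNA-binding partner of STAT2. IRF7 was at 6.06 and 6.04 under shGFP and at 5.44 and 5.30 under shRING1B (-0.69, adjusted p = 0.114). IRF9 was at 7.48 and 7.42 against 6.90 and 6.70 (-0.65, adjusted p = 0.152). Neither change passed the threshold, although the arrays of the groups did not overlap. IRF9 passed with the trended prior variance (0.0218), and its highest adjusted p with 1 array left out was 0.633. IRF1 overlapped, at 4.04 and 4.22 against 3.90 and 4.18 (-0.09, adjusted p = 0.937).

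The 4 IFIT genes encode tetratricopeptide proteins that bind viral RNA and stop its translation. All 4 had lower shRING1B arrays, with changes from -1.07 to -0.24 and no call. IFIT1 was at 6.40 and 6.20 under shGFP and at 5.01 and 5.45 under shRING1B (-1.07, limma adjusted p = 0.07). It passed with the trended prior variance (0.0135) and with only the genes above the median (0.0314), and reached 0.467 without the first shGFP array. IFIT3 was at 5.96 and 6.02 against 5.36 and 5.60 (-0.51, 0.521), and IFIT5 at 7.40 and 7.45 against 7.04 and 7.29 (-0.26, 0.755). IFIT1 thus had the lowest change of the family.

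OASL, a relative of the oligoadenylate synthetases that boosts RIG-I signalling, was at 6.03 and 6.14 under shGFP and at 5.55 and 6.05 under shRING1B (-0.29, limma adjusted p = 0.772). MX2, a GTPase that blocks nuclear entry of viral DNA, was at 4.40 and 4.50 against 3.85 and 4.32 (-0.37, 0.666). The second shRING1B array of OASL lay between its shGFP arrays, and the arrays of MX2 did not overlap.

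In the ISG15 system, HERC6, a close relative of the ligase HERC5, was at 5.78 and 5.88 under shGFP and at 5.15 and 5.04 under shRING1B (-0.74, limma adjusted p = 0.231). ISG15 itself was at 8.79 and 8.93 against 8.32 and 8.68 (-0.36, 0.689). USP18, the protease that removes ISG15 and damps the interferon receptor, was at 8.40 and 8.26 against 8.19 and 8.10 (-0.19, 0.811). HERC5, the main human ISG15 ligase, had a change of 0.14 (0.885), next to HERC6 in the genome. It was 1 of the 4 members above 0, with EPSTI1, TRIM22 and SAMD9L, named here after their values were seen, and all 4 turned below 0 in some fit that left out 1 array.

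The 2 other membrane and entry factors also lay lower without overlap. IFITM1, which hardens membranes against viral fusion, was at 8.76 and 8.71 under shGFP and at 8.16 and 8.18 under shRING1B (-0.56, limma adjusted p = 0.152). It passed with the trended prior variance (0.00567), and its highest adjusted p with 1 array left out was 0.633. RSAD2, or viperin, which makes a chain-terminating nucleotide, was at 4.69 and 4.45 against 4.27 and 3.88 (-0.49, 0.689). DTX3L was at 5.68 on both shGFP arrays and at 5.40 and 5.09 under shRING1B (-0.43, 0.611).

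Beside SP100, the nuclear body genes differed in size of change. SP110 was at 6.83 and 6.85 under shGFP and at 6.43 and 5.85 under shRING1B (-0.70, limma adjusted p = 0.494). PML, the scaffold of the bodies, was at 6.06 and 6.18 against 5.88 and 5.98 (-0.18, 0.863). TRIM22 had a change of 0.09 (0.938), with overlapping arrays.

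SAMD9, an antiviral factor that arrests translation, had one of the lowest changes and also the widest spread. It was at 5.02 and 4.98 under shGFP and at 4.28 and 3.29 under shRING1B (-1.22, limma adjusted p = 0.224). Without the first shRING1B array its change was -1.71 and it passed the test (adjusted p = 0.031). DDX60, a helicase that assists RIG-I, was at 5.43 and 5.32 against 4.98 and 4.64 (-0.56, 0.425), and ISG20, an exonuclease, was at 3.91 and 3.85 against 3.85 and 3.78 (-0.07, 0.957). SAMD9L, the neighbour of SAMD9, had a change of 0.01 (0.998).

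IFI44L and IFI44 came close to the threshold. IFI44L was at 7.02 and 7.24 under shGFP and at 6.13 and 5.67 under shRING1B (-1.23, limma adjusted p = 0.0525). IFI44 was at 7.38 and 7.64 against 6.69 and 6.58 (-0.87, 0.0525). Both passed with a trended, robust prior variance (0.0041 for each) and with only the genes above the median of all probe sets (0.0231 for each). They also passed with the mean of probe sets (0.0486 for each). In that fit the member median, -0.47, and the 30 members below 0 were those of the main fit, so that pass adds little. IFI35, a partner of NMI, was at 5.85 and 5.65 against 5.32 on both shRING1B arrays (-0.43, 0.465). XAF1, a pro-apoptotic protein, had a change of -0.45 and EPSTI1 one of 0.13.

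Members with and without an ISRE core in the window had like changes in SK-ES1. The median change was -0.54 for the 17 members with a core, of which 15 were below 0, and -0.65 for the 9 members without, of which 8 were below 0. SP100 and RIGI were without a core in their windows, and HERC5, with 3 cores, had a change of 0.14. These are descriptions of members chosen for their function, with no test.

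In A673, the list did not move one way. The change was below 0 for 18 members (47.8% of all named genes) and above 0 for 16 (52.2%), with a median of -0.04 against 0.01 for all named genes, and without the first A673 shRING1B array the median was 0.05. By limma, 2 members fell, against 3.04% of all named genes called lower, and none rose, against 0.705%. Both shRING1B arrays lay below both shGFP arrays for 10 members, against 23.9% of all genes, and above them for 9, against 26.0%. At an unadjusted p under 0.05, 7 members were lower (10.1% of all genes) and 2 were higher (8.85%). By array order, the members' counts in both directions were near the shares of all genes. By unadjusted p, the lower count, 7 of 34, was above the share of all genes, and the higher count, 2 of 34, was below it.

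IFIH1 was at 3.77 and 3.80 under shGFP and at 3.25 and 3.10 under shRING1B in A673, below the median of all probe sets throughout. It fell by 0.61 (95% interval of the change -0.91 to -0.32, limma adjusted p = 0.0353). IFI44L was at 4.79 and 4.58 against 3.74 and 4.10 and fell by 0.77 (-1.17 to -0.37, adjusted p = 0.0477). For neither gene did the groups overlap. IFIT1, at 3.47 and 3.16 against 2.63 and 2.73, had a change of -0.64 that did not pass (0.0706). It passed with the trended prior variance (0.0434) and in no fit that left out 1 array. It also passed with only the genes above the median of all probe sets (0.0431). IFIT1 was below that median on every A673 array and entered that fit through its SK-ES1 levels, so that pass supports nothing about A673. DDX60, at 4.48 and 4.46 against 4.09 and 3.77, had a change of -0.54 (0.0825).

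The 2 A673 calls were not stable either. IFIH1 lost its call without any 1 of the 4 A673 arrays (0.0726 to 0.224), without either SK-ES1 shRING1B array (0.0592 each) and with only the A673 arrays in the fit (0.0648). IFI44L lost its call without any 1 of the 4 A673 arrays (0.052 to 0.199), without either SK-ES1 shGFP array (0.0636 each), with only the A673 arrays (0.0749), with repeated quantile normalization (0.0679) and with cyclic loess (0.0553).

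The 6 genes shown by group in the plot of selected members had other values in A673. BST2 was at 3.98 and 3.72 under shGFP and at 3.80 and 3.90 under shRING1B, a change of 0.00 whose sign varied with the normalization. SP100 was at 3.86 and 3.80 against 3.90 and 3.89 (0.06, limma adjusted p = 0.853). CXCL10 was at 3.74 and 3.94 against 3.30 and 3.62 (-0.39, 0.276). These 3 genes lay below the median of all probe sets, 4.06, on every A673 array. IFI44 was at 5.27 and 5.09 against 5.57 and 5.54 (0.37, 0.15), IRF7 at 5.23 and 5.09 against 5.27 and 5.44 (0.20, 0.416) and IRF9 at 6.04 and 6.11 against 6.26 and 6.42 (0.27, 0.267). For these last 3 genes, expressed above that median, both shRING1B arrays lay above both shGFP arrays.

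The other members described above by their SK-ES1 array levels, whose A673 levels are not yet given, had A673 changes from -0.57 to 0.31. None of these passed by limma. RIGI was at 6.02 and 6.23 under shGFP and at 6.14 and 6.24 under shRING1B, which overlapped (0.07, adjusted p = 0.839). DHX58 was at 4.47 and 4.61 against 4.40 and 4.45 (-0.11, 0.665). IRF1 was at 4.64 and 4.66 against 4.57 and 4.70 (-0.02, 0.964). Of these 3, DHX58 had both shRING1B arrays below both shGFP arrays. IFIT3 was at 4.64 and 4.37 against 4.25 and 4.62 (-0.07, 0.853), and IFIT5 at 6.43 and 6.35 against 6.39 and 6.69 (0.15, 0.608), both with overlap.

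OASL was at 4.46 and 4.64 under shGFP and at 4.46 and 4.38 under shRING1B in A673 (-0.13, limma adjusted p = 0.724). MX2 was at 3.74 and 3.49 against 4.0 and 3.86 (0.31, 0.338), with both shRING1B arrays higher but every array below the median of all probe sets. In the ISG15 system, ISG15 was at 6.38 and 6.09 against 6.22 and 6.55 (0.15, 0.677). HERC6 was at 3.38 and 3.80 against 3.58 and 3.28 (-0.16, 0.645), and USP18 at 7.39 and 7.52 against 7.64 and 7.51 (0.12, 0.646). These 3 genes overlapped between the groups, and HERC6 was below the median of all probe sets on every A673 array. HERC5, the other measured gene of the system, was higher without overlap. It was at 2.91 and 2.89 against 3.24 on both shRING1B arrays (0.34, limma adjusted p = 0.177), also below that median.

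IFITM1 was at 7.73 and 7.77 under shGFP and at 7.81 and 7.79 under shRING1B in A673, with both shRING1B arrays slightly higher (0.05, limma adjusted p = 0.849). RSAD2 was at 4.23 and 4.39 against 4.59 and 3.82 (-0.10, 0.855). DTX3L was at 7.12 and 7.09 against 6.52 and 6.96 (-0.36, 0.26), without overlap. SP110 was at 5.96 and 6.30 against 5.40 and 5.79 (-0.54, 0.186), and PML at 6.08 and 5.87 against 5.83 and 6.20 (0.04, 0.91). SP110 did not overlap and PML did.

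SAMD9 was at 3.99 and 3.79 under shGFP and at 3.17 and 3.46 under shRING1B in A673 (-0.57, limma adjusted p = 0.264), lower without overlap, as in SK-ES1, but below the median of all probe sets. ISG20 was at 3.71 and 3.99 against 4.24 and 3.94 (0.24, 0.411), with overlap. IFI35 was at 5.58 and 5.41 against 5.66 and 5.60 (0.13, 0.606), with both shRING1B arrays higher.

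**Figure D4:**
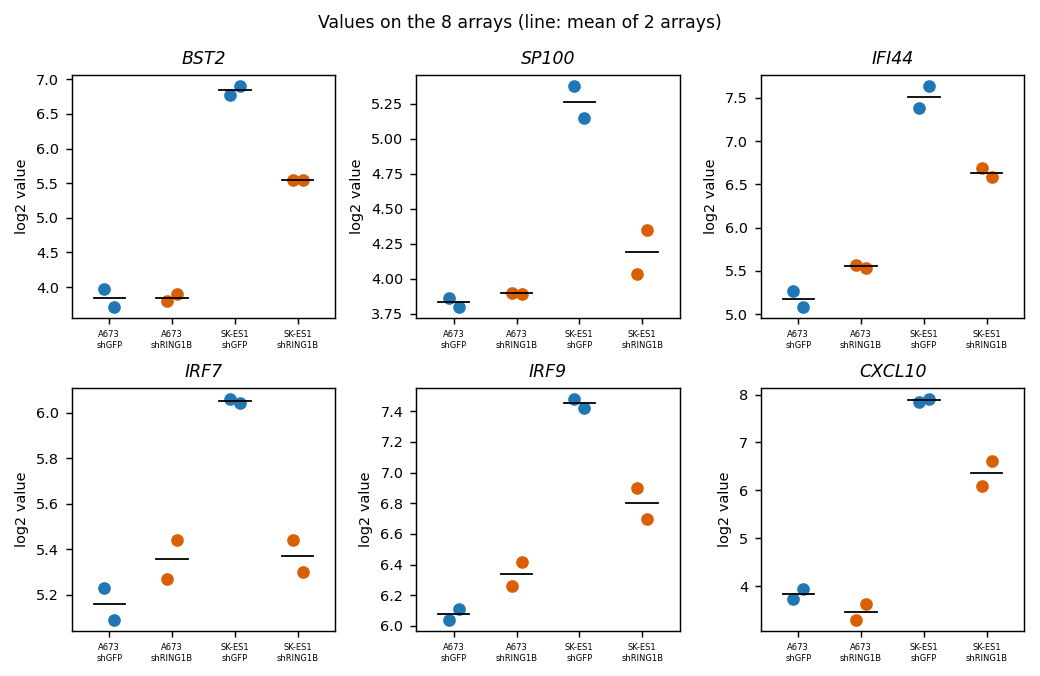
log2 RMA level of BST2, SP100, IFI44, IRF7, IRF9 and CXCL10 on each array by group (horizontal axis), with points for arrays and short lines for the mean of 2 arrays. In SK-ES1 the shRING1B points lie below the shGFP points for all 6 genes; in A673 those of IFI44, IRF7 and IRF9 lie above.

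The difference between the lines was tested itself, as the SK-ES1 change minus the A673 change. It was below 0 for 31 of 34 members (52.0% of all named genes), with a median of -0.40 against -0.01 for all named genes. By limma 5 members passed, all with a lower change in SK-ES1, against 0.161% of all named genes, and none passed the other way, against 0.625%. They were BST2 (-1.29, adjusted p = 0.0162), IFI44 (-1.24, 0.0186), SP100 (-1.14, 0.0364), IRF9 (-0.92, 0.045) and IRF7 (-0.88, 0.0495). The 95% intervals ran from -1.69 to -0.90 for BST2, from -1.65 to -0.84 for IFI44 and from -1.26 to -0.51 for IRF7. CXCL10 had the same estimate as SP100, -1.14, but a wider interval (-1.70 to -0.58) and did not pass (0.0767), and RIGI stood at -0.92 (0.06). Both passed with the trended prior variance (0.0233 and 0.0128) and with only the genes above the median (0.0459 and 0.0326). CXCL10 was below that median on every A673 array and entered that fit through its SK-ES1 levels, so its pass there is no support. IFITM1 (-0.61) passed with the trended prior variance (0.0158).

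BST2 lost this call without the second A673 shGFP array (0.0914) or without any 1 of the SK-ES1 arrays (0.0553 to 0.0869). IFI44 lost it without the second A673 shGFP array (0.112), the second SK-ES1 shGFP array (0.0742) or either SK-ES1 shRING1B array (0.0869 and 0.0923). SP100, IRF9 and IRF7 lost it without any 1 of the 8 arrays, with adjusted p of up to 0.163, 0.164 and 0.214. IRF9 and IRF7 also missed the threshold with cyclic loess (0.0524 and 0.0533).

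Under shRING1B, the lines were closer in the member median. By arithmetic, the gap under shRING1B minus that under shGFP is the difference of the changes tested above, so it is no separate result. Of the members called lower in SK-ES1 under shGFP, DTX3L went from -1.43 to -1.50 and IRF1 from -0.52 to -0.59, further apart. SAMD9L went from -0.68 to -0.41, closer. The member median of SK-ES1 minus A673 was 0.46, against 1.01 under shGFP, with 17 members called higher (13.8% of all named genes) and 3 lower (17.7%). IRF7 went from a difference of 0.90 between the lines under shGFP (limma adjusted p = 0.000279) to 0.01 under shRING1B (0.958). SP100 went from 1.43 to 0.30 (0.135 under shRING1B) and RIGI from 1.29 to 0.37 (0.0566). CXCL10, at 2.90, BST2, at 1.70, and IFIH1, at 3.89, were still higher in SK-ES1, with A673 levels below the median of all probe sets. The member median under shRING1B was 4.40 and 4.22 on the A673 arrays and 5.38 and 5.33 on the SK-ES1 arrays.

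**Figure D5:**
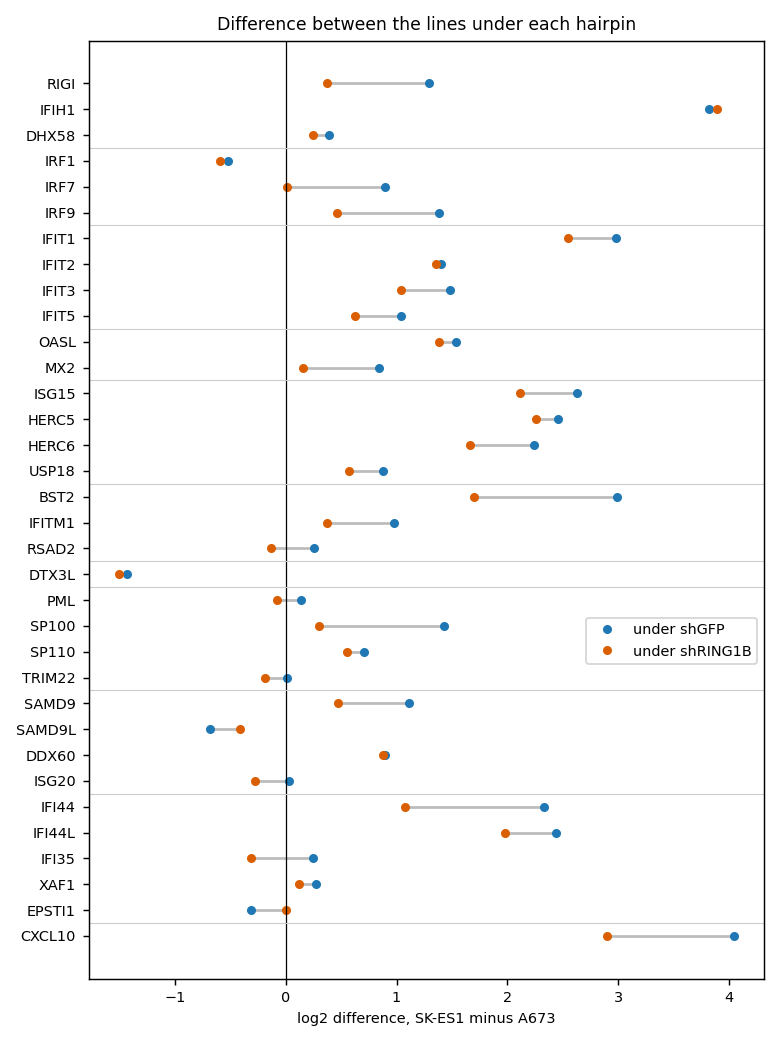
log2 difference between the lines, SK-ES1 minus A673, of the 34 members (rows) under shGFP and under shRING1B, joined by a line. The shRING1B point lies left of the shGFP point for 31 members; the median is 1.01 under shGFP and 0.46 under shRING1B.

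Neighbouring members did not always change alike. IFI44L and IFI44 lie side by side, with no protein-coding gene between them in RefSeq. Their changes were -1.23 and -0.87 in SK-ES1, and -0.77 and 0.37 in A673. SAMD9 and SAMD9L, also side by side, had changes of -1.22 and 0.01 in SK-ES1 and of -0.57 and -0.26 in A673. IFIT1 and IFIT5, also adjacent, had changes of -1.07 and -0.26 in SK-ES1. Differences between neighbours were not tested.

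The rest of the pathway was read from lists of its parts. None of the 15 interferon ligands listed was analysed here, nor were the receptor chains IFNAR1 and IFNAR2. Of 10 listed genes of receptor signalling, 5 were measured (IFNGR1, IFNGR2, JAK1, JAK2 and TYK2), and none passed the test in either line, with SK-ES1 changes from -0.13 to 0.12. Of 16 sensing adaptors and sensors outside the members, 14 were measured. TLR3, the endosomal receptor for double-stranded RNA, fell in A673 from 4.58 and 4.88 to 4.23 and 3.72 (-0.75, limma adjusted p = 0.0461). None passed in SK-ES1, where MYD88, the adaptor of most Toll-like receptors, had the smallest p (-0.57, adjusted p = 0.521). CGAS, the DNA sensor, was named after its values were seen. Under shGFP it was at 3.27 and 3.33 in A673, below the median of all probe sets, and at 6.90 and 7.00 in SK-ES1. CGAS was thus 3.65 higher in SK-ES1 (limma adjusted p = 8.83e-08), and it changed by 0.04 there under shRING1B (0.976). Of 18 listed negative regulators 9 were measured and none passed, and TRIM21 had the smallest p in SK-ES1 (-0.50, 0.456). The lack of a call in lists this short says little, as 3.04% of all named genes were called lower in A673 and 0.0672% in SK-ES1.

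A further list of 65 interferon-stimulated genes outside the members had 34 measured. In SK-ES1, 24 of these had a change below 0, against 51.0% of all named genes, and 20 had both shRING1B arrays below both shGFP arrays, against 19.3%. The median was -0.13, against 0.00 for all named genes. None passed by limma, and at an unadjusted p under 0.05, 11 were lower and 0 higher (4.13% and 3.23% of all named genes). PLSCR1, a scramblase with antiviral activity (-0.72, limma adjusted p = 0.153), IFITM3 (-0.55, 0.217) and SHFL, a block to frameshifting (-0.63, 0.225), had the smallest p. In A673, where 3.04% of all named genes were called lower, 2 of the 34 were called lower. UBE2L6, the conjugating enzyme of ISG15, was at 6.26 and 6.11 under shGFP and at 5.62 and 5.44 under shRING1B, and fell by 0.65 (limma adjusted p = 0.0465). GBP5, an interferon-induced GTPase, was at 3.29 and 3.36 against 2.80 and 2.84, and fell by 0.51 (0.0427). GBP5 lay below 4.06, the median of all probe sets, on all 8 arrays, with 2.83 to 3.16 in SK-ES1, and was not in the fit of only the genes above that median. In the difference between the lines, PLSCR1 (-1.13, limma adjusted p = 0.0364) and IFITM3 (-0.89, 0.0431) passed, against 0.161% of all named genes called in that direction. CXCL11, a close relative of CXCL10 chosen after its values were seen, was at 5.98 and 6.33 against 4.86 and 5.54 in SK-ES1 (-0.95, 0.321). PLSCR1 and IFITM3 lost their calls without any 1 of the 8 arrays (up to 0.164 and 0.184). Leaving out 1 array also ended the calls of TLR3 (any but the first A673 shRING1B array, up to 0.321), GBP5 (any array, up to 0.272) and UBE2L6 (any but the 2 SK-ES1 shGFP arrays, up to 0.194). With only the A673 arrays, none of TLR3, UBE2L6 and GBP5 passed (0.117, 0.0659 and 0.0884). Like GBP5, TLR3 was not in the fit of only the genes above the median of all probe sets. TLR3 and UBE2L6 also missed the threshold with repeated quantile normalization (0.0509 and 0.0634), UBE2L6 with cyclic loess (0.0521) and GBP5 with the trended prior variance (0.0639).

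No array stood apart: correlations over the 14884 named genes were at least 0.9911 within each group. The Ewing sarcoma marker CD99 was at 11.25 to 12.26 on all arrays, and none of the 6 measured Ewing markers of 10 listed passed in either knockdown comparison. Of 17 leukocyte markers 10 were measured, with a mean of 4.22 to 4.41 per array, and none passed in either knockdown comparison. Endothelial, epithelial and fibroblast markers (4, 4 and 3 measured) also gave no call there. Of all named genes, 3.04% were called lower and 0.705% higher in A673, and 0.0672% and 0.0% in SK-ES1. The lack of a call in marker lists this short thus says little. Under shGFP, SK-ES1 and A673 differed by limma in markers of several lists. The fibroblast matrix genes LUM and DCN were 3.37 and 0.80 higher in SK-ES1 (adjusted p = 9.37e-07 and 0.00107), while THY1 of the same list was lower (-1.21, 8.83e-05). The leukocyte marker CD48 was 0.55 higher (0.00967), the other measured leukocyte markers gave no call, and the endothelial marker KDR was lower (-0.56, 0.0373). The Ewing markers CD99 (-0.80), NKX2-2 (-0.66) and BCL11B (-0.62) were also lower. The part of these differences in the gap between the lines was not tested. Of the plasmacytoid dendritic cell markers, TCF4 alone was measured, at 7.81 to 8.27.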

How the data were processed

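Total RNA of 8 samples was labelled with the GeneChip WT PLUS kit, per the labels' protocols. The authors deposited log2 expression values per probe set, and the submitters' processing notes name RMA and limma without versions. Of 48144 probe sets, 16098 (33.4%) carried 1 gene symbol in the platform annotation, giving 14884 genes by their probe set of highest mean. A model of 4 group means was fitted with limma 3.58.1 in R 4.3.3, with 4 residual and 6 prior degrees of freedom, and p-values were Benjamini-Hochberg adjusted over all 14884 genes at a threshold of 0.05. The script was tested on simulated data. With 2 arrays a group, the number of arrays limits the precision.

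The members and lists were chosen with earlier results of these data known. Values on every array were given for each member called in a knockdown comparison or the difference between lines, and for up to 3 members of each role with the smallest p in SK-ES1. Pathway genes were named by the same kind of rule. Alternatives were repeated quantile normalization, cyclic loess, a trended robust prior variance, the mean of probe sets, only the 10852 genes above the median of all probe sets, only the arrays of 1 line, and leaving out each array. Promoters came from RefSeq (GRCh38.p14), in which 8 measured members had no entry.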

Additional observations from a re-analysis of the deposited data

Results flagged for a closer look

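In 5 members the knockdown change differed between the lines by a test of the difference itself (limma adjusted p under 0.05). SK-ES1 minus A673, it was -1.29 for BST2, -1.24 for IFI44, -1.14 for SP100, -0.92 for IRF9 and -0.88 for IRF7. Of all named genes, 0.161% were called in that direction and 0.625% in the other, where no member was. In 2 interferon-stimulated genes outside the members, PLSCR1 (-1.13) and IFITM3 (-0.89), the knockdown change also differed. Each of these calls was lost in some fits that left out 1 array, as given above. BST2 and SP100 lay below 4.06, the median of all probe sets, on every A673 array, while IFI44, IRF7, IRF9, PLSCR1 and IFITM3 lay above it. The part of signal level in these differences was not tested.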

How the results depend on the processing

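The SK-ES1 count of 3 called members was 9 with a trended robust prior variance, 7 with only the genes above the median of all probe sets and 5 with the mean of probe sets, and 0 to 2 when 1 array was left out. The A673 count of 2 was 1 with repeated quantile normalization, 1 with cyclic loess, 0 with only the A673 arrays, 3 with either the trended prior or only the genes above the median, where IFIT1 was added, and 0 to 1 with 1 array left out. The difference between lines had 5 calls, against 8 with the trended prior, 3 with cyclic loess, and 0 to 2 with 1 array left out. The share of all named genes called is given for the main fit only, so these shifts in count are no result about the members. With 1 array left out, the member median ran from -0.54 to -0.45 in SK-ES1, from -0.04 to 0.05 in A673 and from -0.42 to -0.27 for the difference. Only the A673 median changed sign, without the first shRING1B array. With only the genes above the median of all probe sets, the gap between the lines had a median of 1.29 under shGFP and 0.57 under shRING1B. That filter uses the mean over all 8 arrays, so some members low in A673 passed through their SK-ES1 levels. These medians support nothing about the size of the gap, and the A673 count with that filter supports nothing about A673. The member median of the gap under shRING1B ran from 0.37 to 0.53 with 1 array left out. The cause of the other shifts was not tested. With 1 array left out, the lone array of a group was assumed to vary like the other groups. No paired analysis was possible because the labels give no replicate numbers shared between groups. Signal over background was not measured, which limits the low members in A673.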
